A study of Mus musculus with 5 samples.

Results

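The levels of 7 genes of the Trem2 and Tyrobp signalling path were examined in single myeloid cells from the brain: Trem2, Tyrobp, Hcst, Plcg2, Syk, Inpp5d and Cd33. They were chosen by symbol for their place in the path, with earlier results of these data known, and all 7 were found among the 52542 gene rows of the tables. TREM2 is a lipid-sensing surface receptor of microglia and tissue macrophages. It has no signalling tail of its own and pairs with the adaptor DAP12, the product of Tyrobp, whose ITAM motif recruits the kinase SYK; the adaptor DAP10, the product of Hcst, couples the same receptors to PI3 kinase. PLCG2 acts below SYK, the phosphatase SHIP1 (Inpp5d) removes the lipid product of PI3 kinase, and human CD33 is an inhibitory receptor. In human genetics, Trem2, Plcg2, Inpp5d and Cd33 are known as Alzheimer's disease risk genes.

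The cells came from DM-hTAU mice, which carry human tau with a pair of frontotemporal dementia mutations under the natural tau promoter. By the labels all 5 libraries, AB5863, AB5864, AB5865, AB5867 and AB5876, hold brain immune cells positive for CD45 and CD11b from mice aged 9 months and given aPDL1, an antibody that blocks PD-L1. The sort kept cells high for both markers, and the libraries were made by MARS-seq, which counts the 3' ends of mRNA by unique molecular identifiers (UMIs) in single wells. The study's text speaks of cells sorted from mice given a control antibody as well, while the labels give aPDL1 for every library, so cell classes were compared and treatments were not. The libraries are not tied to separate mice, so p-values measure the spread between libraries only, which may be technical. The tissue preparation given with the labels is of thymus and of small intestine and so conflicts with the labelled brain.

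Of 1900 wells with a cell, 825 held at least 500 UMIs and were kept. Libraries AB5865 and AB5876 gave 285 and 314 of these cells with medians of 1168 and 1268 UMIs, and the other libraries gave 68 to 87 cells with medians of 651 to 759 UMIs. Cells were gated on marker genes that include none of the 7, which left 272 microglia, 100 macrophage, 37 monocyte, 41 Cd209a and 30 neutrophil cells. A further 46 cells passed more than 1 gate, 35 of them as microglia and macrophage, and 299 passed none. The microglia threshold had 67 cells within 20% of it, against 23 for macrophage, 1 for monocyte and 3 for Cd209a.

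The 10 microglia markers summed to 165 UMIs per 10000 in microglia cells and to 28.6, 14.7, 11.04 and 14.7 in macrophage, monocyte, Cd209a and neutrophil cells. Ly6c2, which marks classical monocytes, stood at 27.9 in monocyte cells but also at 13.5 in neutrophil cells. The monocyte cells further held 26 UMIs of the 7 T and NK cell markers, 4.39 per 10000, and 15 UMIs of the 5 oligodendrocyte markers, 2.53 per 10000; the part of these in the monocyte values was not tested. Neutrophil markers in microglia cells ranged from 2.26 to 88.4 per 10000 over the libraries, the highest in AB5864, and microglia markers in neutrophil cells from 6.48 to 51.5, the highest in AB5867.

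On GRCm38, Trem2 lies at chr17:48346401-48354147 on the plus strand with 5 exons. Tyrobp, at chr7:30413760-30417585 on the plus strand, and Hcst, at chr7:30417712-30419854 on the minus strand, lie tail to tail with 127 bases between their ends. The others are Plcg2 at chr8:117498291-117635142 (plus strand, with Gm27361 on the other strand), Syk at chr13:52583173-52648792 (plus), Inpp5d at chr1:87620312-87720507 (plus) and Cd33 at chr7:43524216-43544428 (minus). The RefSeq promoter windows of Trem2, chr17:48346151-48346450, and Inpp5d, chr1:87620062-87620361, both on the plus strand of GRCm38.p6, are shown because these were the genes called in at least 1 of the comparisons below. Each runs 5′ to 3′ from 250 bases before the start site to 50 bases after it. Capitals mark AGGAAGT, a core bound by ETS factors such as the myeloid factor PU.1, which was searched on both strands.
Trem2: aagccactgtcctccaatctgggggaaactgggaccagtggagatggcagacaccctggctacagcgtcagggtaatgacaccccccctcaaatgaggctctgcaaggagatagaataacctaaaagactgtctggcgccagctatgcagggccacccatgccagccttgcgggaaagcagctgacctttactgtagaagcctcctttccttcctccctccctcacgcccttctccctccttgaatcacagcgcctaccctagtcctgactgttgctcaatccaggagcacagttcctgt
Inpp5d: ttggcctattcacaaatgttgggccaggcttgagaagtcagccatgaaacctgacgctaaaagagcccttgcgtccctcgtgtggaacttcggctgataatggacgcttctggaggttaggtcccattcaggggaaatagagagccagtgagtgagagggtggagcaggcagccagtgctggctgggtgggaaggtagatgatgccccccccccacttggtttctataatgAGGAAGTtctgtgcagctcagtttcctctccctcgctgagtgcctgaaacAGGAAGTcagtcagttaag
The Inpp5d window held 2 matches, one on each side of the start site, and that of Trem2 held none. The Hcst window also held 2 matches, those of Cd33, Plcg2 and Syk held none, and 9.57% of 27025 promoter windows of the same length held at least 1. Windows were found for 6 of the 7 genes, Tyrobp being the exception.

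Trem2 had its highest level in microglia cells, a lower one in macrophage cells and the lowest levels in monocyte, Cd209a and neutrophil cells. A level is given here as UMIs of the gene per 10000 UMIs of the class, over sums of at least 5 cells of 1 library. In microglia cells Trem2 stood at 21.9, 13.4, 15.9, 14.3 and 14.1 UMIs per 10000 in AB5863, AB5864, AB5865, AB5867 and AB5876, or 15.9 ± 3.46 (SD, n = 5 libraries). In macrophage cells it stood at 9.43 in AB5865 and 4.99 in AB5876. All 5 microglia values lay above both macrophage values.

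In monocyte cells Trem2 stood at 1.14 in AB5865 and 2.86 in AB5876. Its level in Cd209a cells was 1.31 in AB5864, 0.893 in AB5865 and 1.53 in AB5876. In neutrophil cells it was 2.85 in AB5864, 0 in AB5867 and 1.30 in AB5876. These 3 classes overlapped with one another, and none of their libraries reached the lower macrophage value.

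Pooled over libraries, Trem2 gave 507 UMIs in microglia cells (15.3 per 10000, 95% Poisson interval 14.0 to 16.7), 79 in macrophage (7.30, 5.78 to 9.10), 18 in monocyte (3.04, 1.80 to 4.80), 13 in Cd209a (1.39, 0.742 to 2.38) and 4 in neutrophil cells (1.64, 0.446 to 4.20). These intervals cover counting error only. Of the 18 UMIs in monocyte cells 5 came from the 4 cells of AB5864, 12 from AB5876 and 1 from AB5865, so the pooled monocyte value lies above both library values given. Of all 935 Trem2 UMIs in kept cells, 54.2% were in microglia cells. No UMI of any of the 7 genes was seen in the 20 empty wells, where a count of 0 allows up to 0.15 UMIs per well.

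Tyrobp did not follow this order. In microglia cells it stood at 37.7, 27.3, 17.5, 23.0 and 18.7 UMIs per 10000 in the order of libraries above, or 24.8 ± 8.17 (SD, n = 5). Macrophage cells gave 17.5 in AB5865 and 9.98 in AB5876, and monocyte cells 23.9 and 20.03. Tyrobp in the monocyte cells thus lay within the range of the microglia cells.

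In Cd209a cells Tyrobp stood at 19.6 in AB5864, 11.6 in AB5865 and 14.0 in AB5876. Neutrophil cells gave 28.5 in AB5864, 34.3 in AB5867 and 22.0 in AB5876. Each class overlapped with the microglia cells, and in each library with both classes the Cd209a value was below the microglia value. In the same way the neutrophil and the monocyte values were above the microglia value in each shared library. The macrophage value was below it in AB5876, at 9.98 against 18.7, and level with it in AB5865, at 17.5 in both. These levels are shares of all UMIs, and the direction in neutrophil and in monocyte cells moved with the scaling of the tests below. Pooled levels of Tyrobp were 20.7 in microglia, 14.97 in macrophage, 20.9 in monocyte, 13.4 in Cd209a and 27.4 in neutrophil cells.

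**Figure D1:**
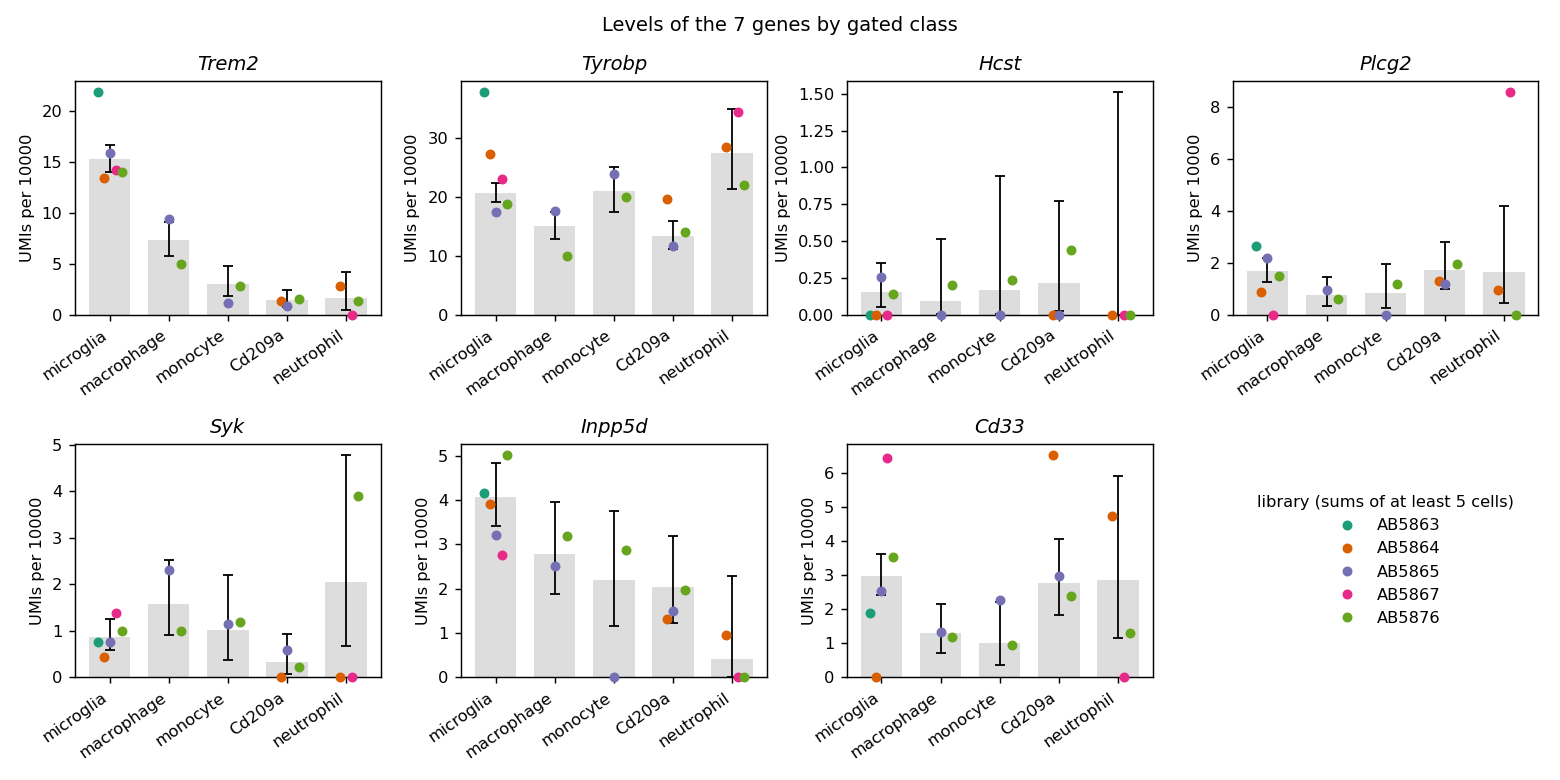
Level of each gene in UMIs per 10000 UMIs (vertical axis) by gated class (horizontal axis). Bars are pooled levels with 95% Poisson intervals, and points are the libraries with at least 5 cells of a class. Trem2 ranges from 15.3 in microglia to 1.39 in Cd209a cells, and Tyrobp lies between 13.4 and 27.4.

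The number of Tyrobp UMIs for each Trem2 UMI was 1.72, 2.03, 1.10, 1.61 and 1.33 in the microglia cells of the 5 libraries, and 1.35 pooled. It was 1.86 and 2 in macrophage cells of AB5865 and AB5876, and 2.05 pooled. Within both of these libraries it was lower in microglia than in macrophage cells, while the microglia cells of AB5864, at 2.03, lay above both macrophage values. The Cd209a cells gave 15 in AB5864, 13 in AB5865 and 9.14 in AB5876, on 1, 3 and 7 Trem2 UMIs. In the monocyte cells the ratio was 21 in AB5865 and 7 in AB5876, on 1 and 12 Trem2 UMIs, so every monocyte and Cd209a library lay above every microglia and macrophage library. Since UMIs tag 3' ends, transcript length does not scale these counts, and the ratio is compared between classes and not read as a difference between the genes.

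Trem2 was set beside Cx3cr1, the fractalkine receptor, and Csf1r, the receptor for the growth factor CSF1, microglial genes that were not used in the gates and were chosen for this after the data were seen. In macrophage cells Trem2 was at 47.7% of its microglia level (interval 37.2 to 60.6%), Cx3cr1 at 42.0% (35.4 to 49.6%) and Csf1r at 69.3% (61.6 to 77.9%). In monocyte cells Trem2 was at 19.9% (11.7 to 31.7%), Cx3cr1 at 24.1% (17.8 to 32.0%) and Csf1r at 26.1% (20.4 to 33.0%). In Cd209a cells these were 9.10% (4.81 to 15.7%), 11.9% (8.45 to 16.4%) and 14.99% (11.5 to 19.2%). In neutrophil cells, which do not express TREM2 as far as is known, they were 10.7% (2.91 to 27.6%), 11.7% (5.60 to 21.6%) and 6.08% (2.44 to 12.6%). The interval of Trem2 overlapped with that of Cx3cr1 in all 4 classes and with that of Csf1r in all but the macrophage cells. Tyrobp was at 72.4%, 101%, 64.8% and 133% of its microglia level in the 4 classes.

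**Figure D2:**
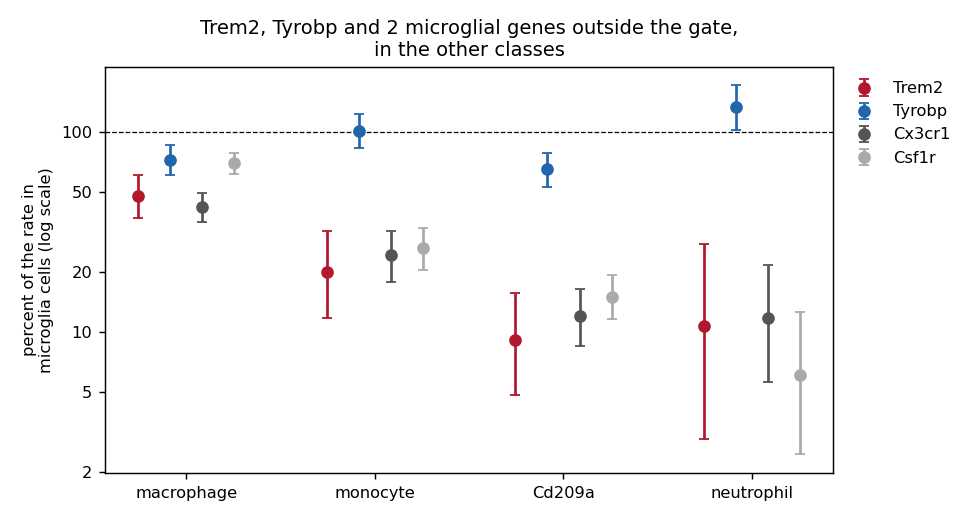
Pooled rate of Trem2, Tyrobp, Cx3cr1 and Csf1r in 4 classes as a percent of the rate in microglia cells (log axis). Points are pooled rates with 95% intervals for counting error. Trem2 lies beside Cx3cr1 in each class, at 47.7% against 42.0% in macrophage and 9.10% against 11.9% in Cd209a cells, and Tyrobp lies between 64.8% and 133%.

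Trem2 was seen in 173 of 272 microglia cells, or 63.6%, and in 36 of 100 macrophage cells, 10 of 37 monocyte cells, 9 of 41 Cd209a cells and 3 of 30 neutrophil cells. The median depth was 953, 876.5, 1231, 2253 and 668.5 UMIs in these classes, so each cell was also thinned to 500 UMIs, which left out no kept cell. The share with a Trem2 UMI was then 46.3% (exact binomial interval 40.3 to 52.4%) in microglia and 27.0% (18.6 to 36.8%) in macrophage cells. It was 13.5% (4.54 to 28.8%) in monocyte, 2.44% (0.0617 to 12.9%) in Cd209a and 3 of 30 (2.11 to 26.5%) in neutrophil cells. The Cd209a share rests on 1 of 41 cells. Thinning was drawn once at random, and the spread between draws was not tested. The monocyte and Cd209a shares lay within the interval of the neutrophil cells, taken here as the background, and no expression was read from them. That interval is wide, on 3 of 30 cells, and the neutrophil cells held microglia markers, so it cannot tell a low level from background. The thinned share for Tyrobp was 47.8% in microglia cells, 45 of 100 in macrophage cells, 64.9% in monocyte, 39.0% in Cd209a and 60.0% in neutrophil cells.

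If all microglia cells had 1 rate, 76.9% would have held a Trem2 UMI and 84.9% a Tyrobp UMI, against the measured 63.6% and 67.6%. The largest count in 1 microglia cell was 15 UMIs for Trem2 and 23 for Tyrobp. Both genes were seen together in 120 microglia cells, Trem2 alone in 53, Tyrobp alone in 64 and neither in 35. In macrophage cells the same numbers were 26, 10, 37 and 27.

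**Figure D3:**
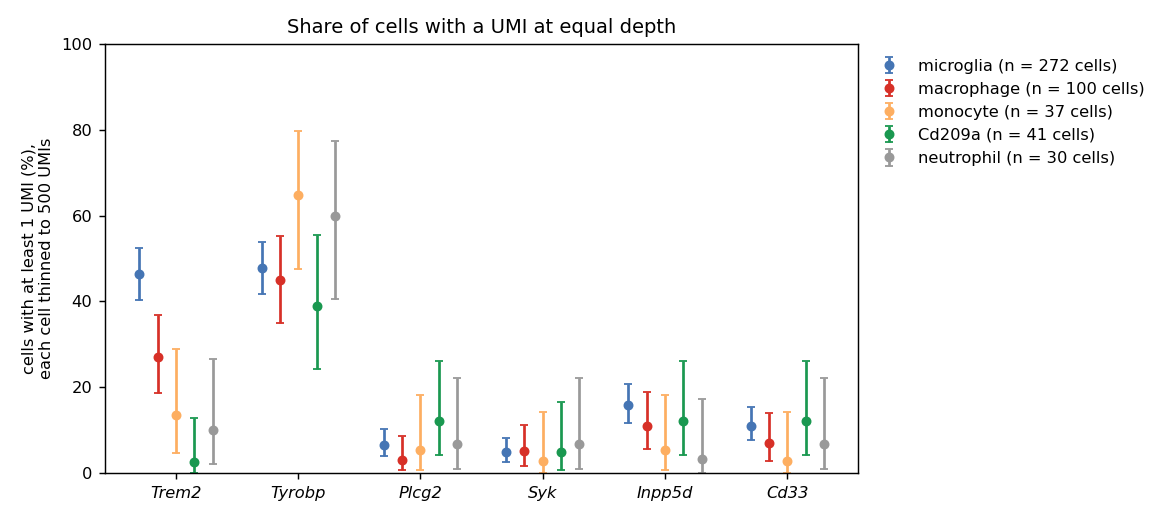
Share of cells with at least 1 UMI (vertical axis, percent) for 6 of the genes after each cell was thinned to 500 UMIs, by class. Points are shares with exact 95% binomial intervals. Trem2 ranges from 46.3% in microglia to 2.44% in Cd209a cells, the latter on 1 of 41 cells, and Tyrobp from 39.0% to 64.9%.

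Hcst was near the limit of detection everywhere. It gave 23 UMIs over all kept cells, 5 of them in microglia, 1 in macrophage, 1 in monocyte, 2 in Cd209a and none in neutrophil cells. The microglia cells had 3 of their 5 UMIs in AB5865 and 2 in AB5876. The 0 in neutrophil cells allows a level of up to 1.23 UMIs per 10000, above the 0.151 in microglia cells, so no difference was detectable at this depth.

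Syk, the kinase that docks on the phosphorylated adaptor, had 108 UMIs over all kept cells. In microglia cells it stood at 0.755, 0.433, 0.760, 1.38 and 0.989 UMIs per 10000 in the 5 libraries, or 0.863 ± 0.350 (SD, n = 5). Macrophage cells gave 2.31 in AB5865 and 0.998 in AB5876. The pooled levels were 0.875 in microglia, 1.57 in macrophage, 1.01 in monocyte, 0.321 in Cd209a and 2.05 in neutrophil cells, and the Poisson intervals of these classes overlapped with that of the microglia cells. The neutrophil level rests on 5 UMIs.

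Plcg2, whose enzyme releases calcium-mobilising second messengers below SYK, stood at 2.64, 0.866, 2.19, 0 and 1.48 in the microglia cells of the 5 libraries, or 1.44 ± 1.05 (SD, n = 5). Macrophage cells gave 0.962 and 0.599 in AB5865 and AB5876, and Cd209a cells 1.31, 1.19 and 1.97 in AB5864, AB5865 and AB5876. These lay within the range of the microglia libraries. Pooled levels were 1.69 in microglia, 0.739 in macrophage, 0.844 in monocyte, 1.71 in Cd209a and 1.64 in neutrophil cells, the last on 4 UMIs of which 3 were in AB5867.

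Inpp5d had its highest pooled level in microglia cells. It stood there at 4.15, 3.90, 3.21, 2.76 and 5.02 UMIs per 10000 in the 5 libraries, or 3.81 ± 0.873 (SD, n = 5). Macrophage cells gave 2.50 in AB5865 and 3.19 in AB5876, and Cd209a cells 1.31, 1.49 and 1.97 in AB5864, AB5865 and AB5876. All 3 Cd209a libraries lay below all 5 microglia libraries, and of the macrophage values that in AB5876 lay within the microglia range. Monocyte cells gave 0 in AB5865 and 2.86 in AB5876, and neutrophil cells held 1 UMI in all, 0.410 per 10000 or 10.1% of the microglia level (interval 0.253 to 57.0%).

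Cd33 varied widely between the microglia libraries, at 1.89, 0, 2.53, 6.44 and 3.53 UMIs per 10000, or 2.88 ± 2.37 (SD, n = 5). The macrophage cells gave 1.35 in AB5865 and 1.198 in AB5876, and the Cd209a cells 6.54, 2.98 and 2.41 in AB5864, AB5865 and AB5876. The Cd209a values fell within or just above the range of the microglia libraries. Pooled levels were 2.99 in microglia, 1.29 in macrophage, 1.01 in monocyte, 2.79 in Cd209a and 2.87 in neutrophil cells.

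Differences between classes were tested on the 15 sums of library and class in a quasi-likelihood fit in edgeR that took the library as a block, over the 3164 genes with at least 30 UMIs that mark no gate. Hcst had too few UMIs, which left 6 of the 7 genes. Called means an adjusted p under 0.05, adjusted over all genes tested. The median fold change of all genes was not 0 and moved with the scaling: in neutrophil against microglia cells it was -2.59 on the log2 scale with TMM factors, -1.55 with TMM factors from the 148 genes seen in every sum and -2.18 with library totals, and 1412 of the genes had no UMI in the neutrophil sums. In Cd209a against microglia cells these medians were -0.43, -0.80 and -0.29, in monocyte against microglia cells -0.57, -0.55 and -0.22, in Cd209a against macrophage cells -0.24, -0.58 and -0.10, and in macrophage against microglia cells -0.14, -0.15 and -0.13. Both other scalings were chosen after the data were seen.

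None of the 6 genes was called in macrophage against microglia cells, where 0.284% of all genes were. Trem2 gave a log2 fold change of -1.02 (SE 0.55), with an adjusted p of 0.775 from edgeR, and its level was lower in macrophage than in microglia cells of both libraries with a macrophage sum, AB5865 and AB5876. The unadjusted p was under 0.05 for 0 of the 6 genes, and DESeq2 also called 0. The call turned on the fit: Trem2 passed, with adjusted p = 0.0025 from edgeR and a fold change of -0.99, when only these classes were fitted, and with adjusted p = 0.012 when sums had 10 cells or more. Tyrobp gave -0.46 (SE 0.52), Inpp5d -0.49 (SE 0.66), Plcg2 -0.93 (SE 0.90), Syk 0.65 (SE 0.96) and Cd33 -1.03 (SE 0.73). The median over the 6 genes was -0.71.

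In Cd209a against microglia cells 1 of the 6 genes was called, against 7.71% of all genes. This was Trem2, at a log2 fold change of -3.69 (SE 0.60, adjusted p = 2.21e-07 from edgeR), lower in all 3 libraries with both sums and called under each of the 17 alternatives run, at -4.13 to -3.02. Tyrobp gave -0.80 (SE 0.45, adjusted p = 0.293 from edgeR) and Inpp5d -1.45 (SE 0.65, adjusted p = 0.165). Both were called as lower with TMM factors from the genes seen in every sum, Tyrobp at -1.01 with adjusted p = 0.0013 and Inpp5d at -1.79 with adjusted p = 0.018, and when only these classes were fitted. Syk gave -1.47 (SE 1.16), Cd33 0.076 (SE 0.63) and Plcg2 0.023 (SE 0.83), and the median over the 6 genes was -1.13.

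Trem2 was also the single one of the 6 genes called in monocyte against microglia cells, at -2.86 (SE 0.67, adjusted p = 0.0027 from edgeR), where 2.24% of all genes were called. Its level was lower in both libraries with a monocyte sum. The call was lost without AB5865 (-2.37, adjusted p = 1) and without AB5876 (-4.07, adjusted p = 0.498), each of which left 1 library with both classes, and over all alternatives the value lay between -4.07 and -2.13. Tyrobp gave -0.25 (SE 0.52), Syk -0.11 (SE 1.12), Plcg2 -0.97 (SE 1.02), Inpp5d -1.40 (SE 0.77) and Cd33 -1.38 (SE 0.87). The direction for Tyrobp moved with the scaling, at 0.25 with library totals and -0.072 with TMM factors from the genes seen in every sum. The median over the 6 genes was -1.17.

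In neutrophil against microglia cells 2 of the 6 genes were called, against 8.34% of all genes. Trem2 gave -3.49 (SE 0.75, adjusted p = 0.00022 from edgeR) and was lower in all 3 libraries with both sums. It was not called without AB5876 (-2.91, adjusted p = 0.132) or with sums of 10 cells or more (-2.36, adjusted p = 0.057). The size moved with the libraries and the scaling, to -4.59 without AB5864 and to -2.23 with TMM factors from the genes seen in every sum. The median of all genes in this comparison was itself low, at -2.59 in the main fit and -1.55 with those other TMM factors. Inpp5d gave -3.56 (SE 1.2, adjusted p = 0.040), resting on 1 neutrophil UMI against 135 microglia UMIs, and was called in 7 of the 16 alternatives; without AB5865, AB5867 or AB5876 its adjusted p was 0.268, 0.144 and 0.541. Without AB5864, which holds that UMI, the fitted value was -7.25, a number that depends on the prior count and is no bound.

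The direction for Tyrobp in neutrophil cells depended on the scaling, at -0.28 (SE 0.46) with TMM factors, 0.29 with library totals and 0.94 with TMM factors from the genes seen in every sum. Under the last of these it was called as higher, with adjusted p = 0.034 from edgeR. All 3 values lay above the median of all genes under the same scaling. Cd33 gave -0.66 (SE 0.85), Plcg2 0.29 (SE 1.12) and Syk 0.36 (SE 1.24), none of them called, and the median over the 6 genes was -0.47.

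In Cd209a against macrophage cells Trem2 was the single one of the 6 called, at -2.67 (SE 0.68, adjusted p = 0.0058 from edgeR), where 3.35% of all genes were. Its level was lower in both libraries with the 2 sums, AB5865 and AB5876. Without AB5865 the value was -2.03 (adjusted p = 1) and without AB5876 it was -3.47 (adjusted p = 0.104). Tyrobp gave -0.34 (SE 0.52), Inpp5d -0.96 (SE 0.75), Plcg2 0.95 (SE 0.99), Syk -2.12 (SE 1.18) and Cd33 1.11 (SE 0.79). The median over the 6 genes was -0.65.

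**Figure D4:**
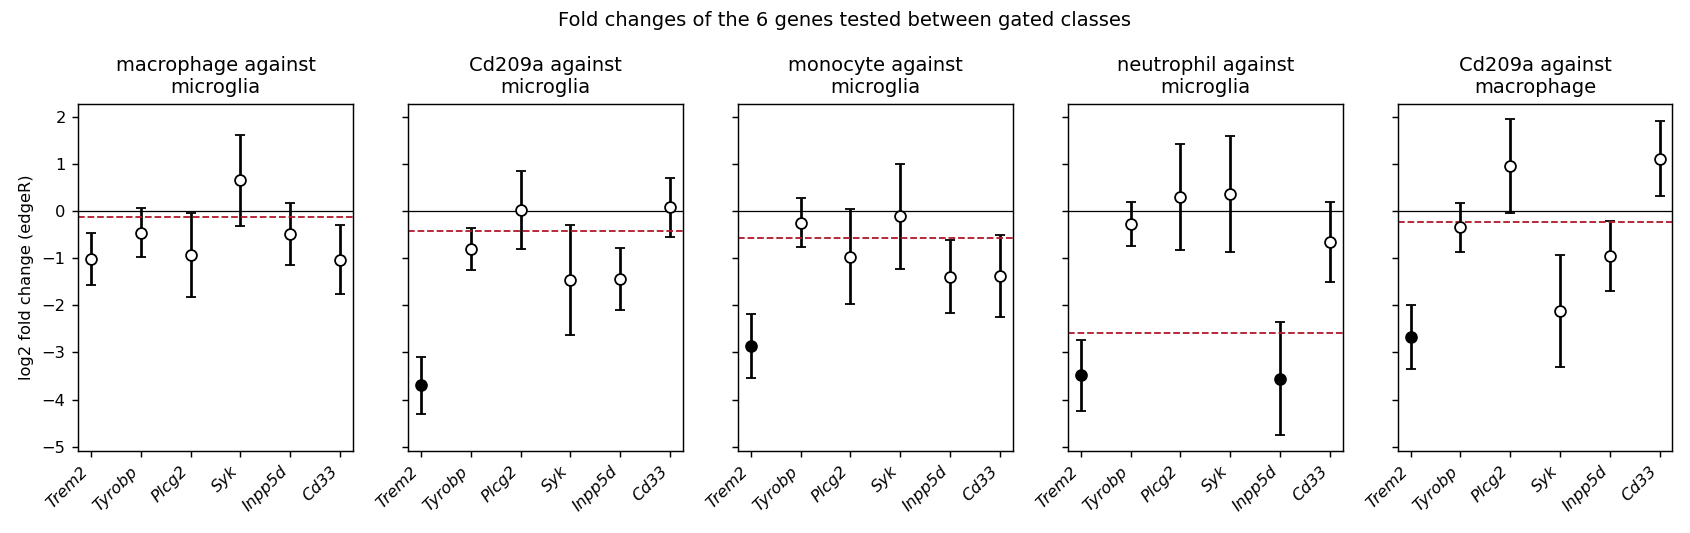
Log2 fold change with its standard error (vertical axis) of the 6 genes tested in each of the 5 comparisons. Filled points have an edgeR adjusted p under 0.05, open points do not, and the dashed line is the median of all 3164 genes. Trem2 is filled in 4 comparisons, at -2.67 to -3.69, and stands at -1.02 in macrophage against microglia cells.

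The comparisons share their microglia sums, so their values are not independent. The scaling also moved the balance of calls over all genes. With TMM factors 45 genes were higher and 219 lower in neutrophil against microglia cells, against 117 and 59 with TMM factors from the genes seen in every sum and 76 and 161 with library totals. In Cd209a against microglia cells 78 were higher and 166 lower, against 118 and 404 with TMM factors from the genes seen in every sum and 230 and 216 with library totals. In monocyte against microglia cells 26 were higher and 45 lower, against 53 and 81 and against 79 and 57 in the same order. In Cd209a against macrophage cells 31 were higher and 75 lower, against 48 and 206 with TMM factors from the genes seen in every sum and 133 and 122 with library totals.

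Other genes of the path were taken from a list of 88 genes, of which 48 could be tested. None was called in macrophage against microglia cells by edgeR, with 5 at an unadjusted p under 0.05 and 1 called by DESeq2, and the list's median log2 fold change was -0.15. The DESeq2 call was in the group of ligands and sheddases, which holds Apoe, a lipid carrier and ligand of TREM2. In edgeR Apoe gave 1.57 (SE 0.50, adjusted p = 0.178). Over the sums it stood at 224.7 UMIs per 10000 in macrophage and 71.3 in microglia cells. In Cd209a against microglia cells 1 of the 48 was higher and 6 were lower, where 7.71% of all genes were called, with a median of -1.30 against -0.43 over all genes. Apoe fell by 3.09 (SE 0.49, adjusted p = 8.09e-08 from edgeR). The Fc receptors Fcgr3 and Fcgr1, which signal through the related adaptor FcRγ, were at -2.60 (SE 0.53) and -2.57 (SE 0.67). The inhibitory receptor Sirpa fell by 2.21 (SE 0.56). The myeloid transcription factor Irf8, at -2.44 (SE 0.79), and the calcium channel gene Itpr2 were also lower, the latter on 1 UMI against 54, or 7.06% of the microglia level (interval 0.175 to 41.0%). Anxa1, an annexin, rose by 2.197 (SE 0.75, adjusted p = 0.045 from edgeR), on 17 UMIs against 9. It stood at 44.6 UMIs per 10000 in the neutrophil sums. Neutrophil markers in Cd209a cells ranged from 3.27 to 74.6 per 10000 over the libraries, and their part in the Anxa1 value was not tested. DESeq2 called 6 of the 48 genes here and did not call Itpr2.

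In monocyte against microglia cells edgeR called 1 of the 48 genes, Fcgr3, at -2.04 (SE 0.62, adjusted p = 0.044 from edgeR), where 2.24% of all genes were called, while DESeq2 called 4, of which 3 were inhibitory receptors. The median was -0.71 against -0.57 over all genes. In neutrophil against microglia cells 3 of the 48 were higher and 6 lower, where 8.34% of all genes were called, with a median of -1.66 against -2.59 over all genes. The risers were Anxa1 at 5.90 (SE 0.69) and the inhibitory receptors Pirb at 3.45 (SE 1.00) and Clec12a at 3.13 (SE 0.98). Apoe, at -3.22 (SE 0.52), and Fcgr3, at -1.97 (SE 0.58), were lower, Fcgr3 by less than the median of all genes. Over the sums Fcgr3 stood at 6.90 UMIs per 10000 in neutrophil and 14.9 in microglia cells. Sirpa was lower on 3 UMIs, at 11.5% of the microglia level (interval 2.37 to 34.0%), and Fcgr2b, the inhibitory Fc receptor, on 1 UMI, at 8.91% (0.224 to 50.3%). Fcgr1 and Irf8 had no UMI in the neutrophil sums, which places them at least 3.72-fold and at least 3.04-fold lower against a floor of 3 counts over the class. In Cd209a against macrophage cells 3 were lower and none higher, where 3.35% of all genes were called, with a median of -1.07 against -0.24 over all genes, namely Apoe at -4.66 (SE 0.54), Fcgr1 at -2.91 (SE 0.71) and Fcgr3 at -2.55 (SE 0.59).

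Among the patterns most like that of Trem2 over the 15 sums, by Pearson correlation of log2 CPM, were those of Abhd12 (r = 0.95), Arhgap5 (0.94), Rnase4 (0.93) and Slc29a3 (0.93). For Tyrobp they were Lmbrd1 (0.83), Hsd17b4 (0.75), Creg1 (0.75), Wls (0.74) and Strn3 (0.74). The sums share libraries, depth and scaling, and the genes most like Tyrobp had only 39 to 151 UMIs in all, so these values are a description.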

How the data were processed

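For each of 5 plates of 384 wells the authors deposited a table of UMI counts as counted, not normalized, with a table that describes the wells; their methods refer to earlier MARS-seq work. Per the submitters' notes, bcl2fastq 2.15.0.4 and the build mm10 were used, with no aligner given in the sources used here. The total was 128201 to 549824 UMIs per library, without the 92 ERCC rows. Wells with 1 cell and at least 500 UMIs were kept; the authors' sort gated out doublets, and none were called here. All wells were in 1 sequencing batch, and the 384 cell barcodes recur in every library, whose pool barcodes differ, with no well shared.

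A neutrophil cell held at least 1000 neutrophil marker UMIs per 10000. The other gates needed 3 marker UMIs (2 for Cd209a) and 2 times the pooled rate, or the pooled rate for microglia. Gate markers were P2ry12, Tmem119, Siglech, Gpr34, Fcrls, Olfml3, P2ry13, Sall1, Slc2a5 and Sparc for microglia, Pf4, Mrc1, Cbr2, Lyve1, Cd163, Stab1, Ms4a7, F13a1, Folr2 and Cd209f for macrophage, Ly6c2, Chil3, Plac8, F10, Vcan and Fn1 for monocyte, Cd209a alone for Cd209a, and S100a8, S100a9, Retnlg, Ngp, Camp, Ltf, Lcn2, Mmp8, Mmp9 and Cxcr2 for neutrophil cells. These 37 genes were not tested. UMI counts of the cells of each class in each library were added up and fitted in edgeR 4.0.16 (R 4.3.3) with TMM factors, robust quasi-likelihood and the library as block, because these sums share a plate; with 6 residual degrees of freedom, the p-values rest on few sums. SE is the fold change divided by the root of F. The fit was tested on simulated data. Alternatives included DESeq2 1.42.0 and are given below. Intervals are exact (Poisson, Clopper-Pearson) at 95% and cover counting error only, as does the floor of 3 counts. Gene positions are from GENCODE for GRCm38 and promoter windows from RefSeq.

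The text names all 7 members, up to 4 genes past the threshold per group of the pathway list, and the 5 genes most correlated with Trem2 and with Tyrobp, and markers only as a check of the gates; some of these genes are not reported here. Members, gates and lists were chosen with earlier results of these data known.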

Additional observations from a re-analysis of the deposited data

Results flagged for a closer look

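The Trem2 level in microglia cells of library AB5863, 21.9 UMIs per 10000 on 58 UMIs in 34 cells, stood apart from the other 4 libraries, which lay between 13.4 and 15.9. The gap to the next library, 0.711 of the range, only just exceeded Dixon's 95% critical value for 5 samples. This was 1 of 7 groups of values examined in this way, and chance alone marks about 1 in 20. Tyrobp was also highest in AB5863, at 37.7.

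Wells with a cell but fewer than 500 UMIs, which enter no comparison, also held the genes. In these 1075 wells Trem2 gave 0.266 UMIs per well and Tyrobp 0.589, above the 0.15 per well that the 0 UMIs in the 20 empty wells allow. Per 10000 UMIs the levels were 10.8 for Trem2 and 24.0 for Tyrobp.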

How the results depend on the processing

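The number of the 7 genes with their highest pooled level in microglia cells was 3 (Trem2, Inpp5d and Cd33) and stayed at 3 with any 1 replicate left out. The genes behind this number did not stay the same, since Cd33 was not among them without AB5867 or without AB5876. Cd33 was close between classes, at 2.99 UMIs per 10000 in microglia, 2.87 in neutrophil and 2.79 in Cd209a cells. Trem2 kept its direction in every comparison under all alternatives that gave a value. No neutrophil sum was left at 1000 UMIs per cell. Libraries AB5865 and AB5876, with most cells, carry the macrophage and monocyte values, and few UMIs limit Hcst, Syk and Plcg2. The 2 other scalings were added after the data were seen. The cause of the changes below was not tested.

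The number of genes called in macrophage against microglia cells rose from 0 to 1 with sums of 10 cells or more and in fits of only these classes. In Cd209a against microglia cells it was 2 with sums of 10 cells or more, 3 in fits of only these classes and 3 with TMM factors from the genes seen in every sum. In monocyte against microglia cells it was 2 under stricter gates (5 marker UMIs, 3 for Cd209a, and 1.5 times the rates). In neutrophil against microglia cells it was 1 with cells of 300 UMIs or more, with library totals, with mixed cells assigned and in fits of only these classes, and 0 with sums of 10 cells or more. With 1 replicate left out it ranged from 0 to 0 in macrophage, 1 to 1 in Cd209a, 0 to 1 in monocyte and 0 to 2 in neutrophil against microglia cells and from 0 to 1 in Cd209a against macrophage cells; a lone sum is then assumed to vary like the others. Without the replicate block the counts of these genes were 0, 1, 1, 2 and 1, as with it.

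Over all genes tested, the main counts of 9, 244, 71, 264 and 106 calls (macrophage, Cd209a, monocyte and neutrophil against microglia cells, and Cd209a against macrophage cells) ranged over the alternatives from 0 to 164, 18 to 553, 0 to 158, 37 to 345 and 4 to 402.

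Fold changes of genes not called with the reported settings changed sign as follows. With cells of 300 UMIs or more, the value was -0.51 for Syk (macrophage against microglia), -0.33 for Plcg2 (Cd209a against microglia), -0.38 for Cd33 (Cd209a against microglia), -0.20 for Plcg2 (neutrophil against microglia) and 0.12 for Inpp5d (Cd209a against macrophage). With no filter on low counts, it was -0.30 for Plcg2 (Cd209a against microglia), -0.21 for Cd33 (Cd209a against microglia), -0.13 for Plcg2 (neutrophil against microglia) and -0.13 for Syk (neutrophil against microglia). With cells of 1000 UMIs or more, it was -0.31 for Plcg2 (Cd209a against microglia), -0.25 for Cd33 (Cd209a against microglia), 0.60 for Syk (monocyte against microglia) and 0.0088 for Tyrobp (Cd209a against macrophage). Under the stricter gates, it was -0.39 for Plcg2 (Cd209a against microglia). With mixed cells given to the class of largest ratio, it was -0.16 for Plcg2 (Cd209a against microglia) and -0.051 for Cd33 (Cd209a against microglia). With sums of 10 cells or more, it was -0.16 for Plcg2 (Cd209a against microglia), -0.21 for Cd33 (Cd209a against microglia), 0.17 for Tyrobp (monocyte against microglia), 0.61 for Syk (monocyte against microglia), -0.0025 for Plcg2 (neutrophil against microglia), -4.08 for Syk (neutrophil against microglia) and 7.32 for Cd33 (neutrophil against microglia). With TMM factors from the genes seen in every sum, it was -0.37 for Plcg2 (Cd209a against microglia), -0.25 for Cd33 (Cd209a against microglia), 0.94 for Tyrobp (neutrophil against microglia) and 0.41 for Cd33 (neutrophil against microglia). Without the replicate block, it was -0.10 for Plcg2 (Cd209a against microglia), 0.24 for Syk (monocyte against microglia) and -0.25 for Plcg2 (neutrophil against microglia). In fits of only the 2 classes compared, it was -0.69 for Plcg2 (Cd209a against microglia), -0.20 for Cd33 (Cd209a against microglia), 0.054 for Tyrobp (monocyte against microglia), 0.24 for Syk (monocyte against microglia) and 0.095 for Tyrobp (neutrophil against microglia). With library totals in place of TMM, it was 0.25 for Tyrobp (monocyte against microglia), 0.22 for Syk (monocyte against microglia) and 0.29 for Tyrobp (neutrophil against microglia).

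With 1 replicate left out the log2 fold change ranged from -0.95 to 0.040 for Tyrobp (macrophage against microglia), -0.46 to 1.57 for Syk (macrophage against microglia), -0.40 to 0.68 for Plcg2 (Cd209a against microglia), -0.29 to 0.73 for Cd33 (Cd209a against microglia), -0.20 to 0.033 for Tyrobp (monocyte against microglia), -5.61 to 0.11 for Plcg2 (monocyte against microglia), -0.32 to 0.13 for Syk (monocyte against microglia), -0.29 to 0.0996 for Tyrobp (neutrophil against microglia), -1.63 to 2.16 for Plcg2 (neutrophil against microglia), -4.18 to 1.14 for Syk (neutrophil against microglia), -2.87 to 0.28 for Cd33 (neutrophil against microglia) and -0.86 to 0.12 for Tyrobp (Cd209a against macrophage). Fitted values such as 7.32 for Cd33 are against sums without a UMI and depend on the prior count.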

Other observations

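Cells that passed no gate held 266 Trem2 UMIs in 299 cells, 5.80 per 10000, and 819 Tyrobp UMIs, 17.9 per 10000. Trem2 stood at 17.4 in the ungated cells of AB5867 and at 3.13, 2.96, 4.86 and 6.07 in those of AB5863, AB5864, AB5865 and AB5876. The 46 cells that passed more than 1 gate, most of them as microglia and macrophage, gave 8.32 for Trem2 and 16.1 for Tyrobp.

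Microglia cells were also divided at the pooled rate of 4 genes of antigen presentation on MHC class II (Cd74, H2-Aa, H2-Ab1 and H2-Eb1), a division chosen after the data were seen and given without a test. Trem2 stood at 11.9 UMIs per 10000 in the 63 cells at or above the rate of 98.4 and at 16.6 in the 209 cells below it, with 6 cells within 20% of it. It was lower in the upper cells of every library, at 11.8 against 25.4, 10.9 against 16.5, 15.01 against 16.2, 2.98 against 16.3 and 10.1 against 15.3 in AB5863, AB5864, AB5865, AB5867 and AB5876. All microglia cells of AB5863, AB5864 and AB5867 held 58, 31 and 31 Trem2 UMIs, so their upper values rest on few UMIs. Tyrobp stood at 17.4 and 21.9, and the median depth was 1076 and 931 UMIs. By library Tyrobp was 16.2 against 45.1, 27.3 against 27.3, 14.4 against 18.7, 0 against 27.2 and 18.5 against 18.8 in the same order, so AB5864 and AB5876 were level or nearly so. In macrophage cells divided in the same way Trem2 stood at 8.18 in the 46 upper and 6.57 in the 54 lower cells, but the libraries went opposite ways, with 8.63 against 10.3 in AB5865 and 7.85 against 3.03 in AB5876.

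Divided instead at the pooled rate of 6 genes of activated microglia (Lpl, Spp1, Cst7, Itgax, Ccl3 and Ccl4), 59 upper microglia cells gave 16.0 for Trem2 and 23.0 for Tyrobp, and 213 lower cells gave 15.1 and 19.9. The Poisson intervals of Trem2 in these were 13.4 to 19.0 and 13.6 to 16.7. The 4 libraries with enough upper cells did not share a direction. Trem2 in upper against lower cells was 6.02 against 25.6 in AB5863 and 8.48 against 15.9 in AB5867, but 18.9 against 15.1 in AB5865 and 16.4 against 13.1 in AB5876. All microglia cells of AB5863 and AB5867 held 58 and 31 Trem2 UMIs, so their upper values rest on few UMIs. Tyrobp was 74.2 against 29.3 in AB5863 and 20.03 against 16.8 in AB5865, but 14.8 against 25.3 in AB5867 and 16.9 against 19.5 in AB5876.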
